A study of Mus musculus with 4 samples.

Results

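The 9 genes described here (the members below) encode transcription factors of monocytes and macrophages: Spi1, Maf, Irf8, Irf4, Klf2, Klf4, Cebpa, Cebpb and Zeb2. They were chosen by name, as 9 of the 28692 genes in the table, and all 9 were found in it. Their counts were followed from colon cells rich in Ly6c2 (the gene of the monocyte surface marker Ly6C) to cells rich in C1qa (a chain of complement C1q made by tissue macrophages), in cells with Cd209a transcripts, and in mice given diesel exhaust particles (DEP) or saline. Cells came from the lamina propria of the colon of 4 male C57/Bl6N mice, whose age the labels do not state. DEP 11 and DEP 13 had been gavaged on 5 days a week for about 6 months with 12 µg of DEP in 200 µL of phosphate-buffered saline (PBS), and PBS 2 and PBS 3 had received PBS alone on the same days. Every sample had been sorted as Cd11b+ and either Ly6c2+ or Cd64+, and the cells of each mouse filled 1 well of a 10x Genomics 3' v2 run.

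Blood monocytes keep entering the wall of the colon, where they lose Ly6C and take on the gene programme of resident macrophages. PU.1, the product of Spi1, opens chromatin for the whole lineage and works with interferon regulatory factors and C/EBP proteins, which bind beside it. KLF and ZEB factors, and the large MAF protein c-Maf, are known to set parts of the monocyte and macrophage programmes on top of that base.

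A unique molecular identifier (UMI) marks 1 captured transcript. Of 6954 barcodes, 4771 held at least 1000 UMIs, and 272 of these with at least 5 UMIs per 10000 from markers of T, B or plasma cells were left out. The other 4499 cells came from DEP 11 (1157), DEP 13 (624), PBS 2 (1246) and PBS 3 (1472), with a median of 5325 to 7118 UMIs per cell. Cells were placed in 4 classes by Ly6c2 (at least 2 UMIs per 10000 or not) and C1qa (at least 10 or not). There were 528 Ly6c2-only cells, 587 cells with both, 512 with neither and 2872 C1qa-only cells. Levels below are UMIs summed over the cells of a mouse and class, scaled to a total of 1000000 UMIs (CPM), and the mouse is the replicate (n = 4, or 2 against 2). A class holds cells on both sides of a limit set on a continuous level, and 714 cells had C1qa between 10 and 20 per 10000. Barcodes under 500 UMIs, which can hold free RNA or damaged cells, had C1qa at 11.3 to 18.4 per 10000, above the limit of 10, and the part of free RNA in the C1qa of single cells was not tested. The sort markers were present in every class, with Itgam (Cd11b) at 83.6 to 115 CPM and Fcgr1 (Cd64) at 188 to 278 CPM in C1qa-only cells. The 2 genes that set the classes are not read as results, although some counts and medians of markers below include them.

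In mm10, Spi1 lies at chr2:91082390-91115756, Maf at chr8:115682942-115707794, Irf8 at chr8:120736358-120756694, Irf4 at chr13:30749226-30766976, Klf2 at chr8:72319033-72321656, Klf4 at chr4:55527143-55532466, Cebpa at chr7:35119293-35121928, Cebpb at chr2:167688915-167690418 and Zeb2 at chr2:44983632-45117395. Promoter sequences of 300 bases (250 before and 50 after the start, RefSeq, GRCm38.p6) were at hand for 7 of them. The windows of a pair of genes that were higher in C1qa-only cells (Irf8, chr8:120736108-120736407, plus strand, and Cebpa, chr7:35119043-35119342, plus strand) and of a pair that were lower (Klf4, chr4:55532426-55532725, minus strand, and Cebpb, chr2:167688665-167688964, plus strand) are printed to set both directions side by side. Capitals mark matches, on either strand, to the letters searched: GAGGAA (the core bound by PU.1), TTGCNNAA (C/EBP), TTCNNNGAA (STAT proteins, the GAS type), a pair of GAAA blocks with 2 bases between them (interferon regulatory factors), CACCC (KLF) and CACCTG (ZEB).
Irf8: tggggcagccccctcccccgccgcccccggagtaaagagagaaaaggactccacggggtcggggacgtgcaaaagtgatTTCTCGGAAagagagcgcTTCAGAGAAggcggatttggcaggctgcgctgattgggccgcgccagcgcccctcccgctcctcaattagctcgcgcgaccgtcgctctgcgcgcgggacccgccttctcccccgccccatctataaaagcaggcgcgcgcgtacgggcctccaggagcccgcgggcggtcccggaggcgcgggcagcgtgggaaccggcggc
Cebpa: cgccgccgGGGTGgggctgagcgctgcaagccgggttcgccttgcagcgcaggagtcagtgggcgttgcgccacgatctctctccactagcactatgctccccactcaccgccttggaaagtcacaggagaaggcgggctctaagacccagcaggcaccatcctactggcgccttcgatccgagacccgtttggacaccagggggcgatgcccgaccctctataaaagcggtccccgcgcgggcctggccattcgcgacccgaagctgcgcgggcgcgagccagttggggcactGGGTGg
Klf4: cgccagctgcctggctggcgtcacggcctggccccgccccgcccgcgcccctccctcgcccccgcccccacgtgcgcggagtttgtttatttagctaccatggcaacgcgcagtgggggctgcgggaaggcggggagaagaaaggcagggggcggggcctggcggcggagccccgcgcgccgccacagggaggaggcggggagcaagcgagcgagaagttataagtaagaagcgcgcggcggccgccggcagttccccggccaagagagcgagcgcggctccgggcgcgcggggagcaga
Cebpb: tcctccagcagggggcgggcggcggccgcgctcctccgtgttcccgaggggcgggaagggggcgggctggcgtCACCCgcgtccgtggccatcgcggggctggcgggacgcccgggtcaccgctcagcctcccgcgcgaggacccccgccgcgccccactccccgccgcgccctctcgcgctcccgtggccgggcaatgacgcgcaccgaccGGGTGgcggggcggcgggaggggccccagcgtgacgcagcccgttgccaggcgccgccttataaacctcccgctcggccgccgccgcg
Irf8 held 2 GAS-type matches, TTCTCGGAA and TTCAGAGAA, at positions −171 and −153 from its start, and such a match stood in 8.30% of the 32851 promoters in the reference. Cebpa and Cebpb each held 2 KLF-type matches, against 57.5% of all promoters with at least 1. Klf4 held none of the 6. Among the windows not printed, Zeb2 held 1 PU.1 core (28.3% of all promoters), 1 C/EBP-type match (10.8%) and 1 KLF-type match, Irf4 held 1 PU.1 core and 1 KLF-type match, and Klf2 held 1 KLF-type match. Matches to the IRF letters (3.44% of all promoters) and the ZEB letters (20.2%) were found in none of the 7. The reference holds 2 promoters for Irf8 and 4 for Zeb2, and only the window nearest to the annotated gene start was searched for each. No match overlapped another in the 7 windows. These are matches of letters and say nothing about binding.

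The first question was how each factor gene differed between cells at the Ly6c2 end and cells at the C1qa end of the same mouse. Maf, Irf8 and Cebpa were higher in C1qa-only than in Ly6c2-only cells, Klf2, Klf4 and Cebpb were lower, and Spi1 and Zeb2 did not pass the test. In this comparison 34.0% of the 6582 genes tested passed (15.8% higher and 18.2% lower), so 6 of 8 members tested, 3 in each direction, is read against a large background. The median log2 difference was −0.17 over the 8 members and 0.0014 over all genes tested. Irf4 had a UMI in too few cells to be tested.

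**Figure D1:**
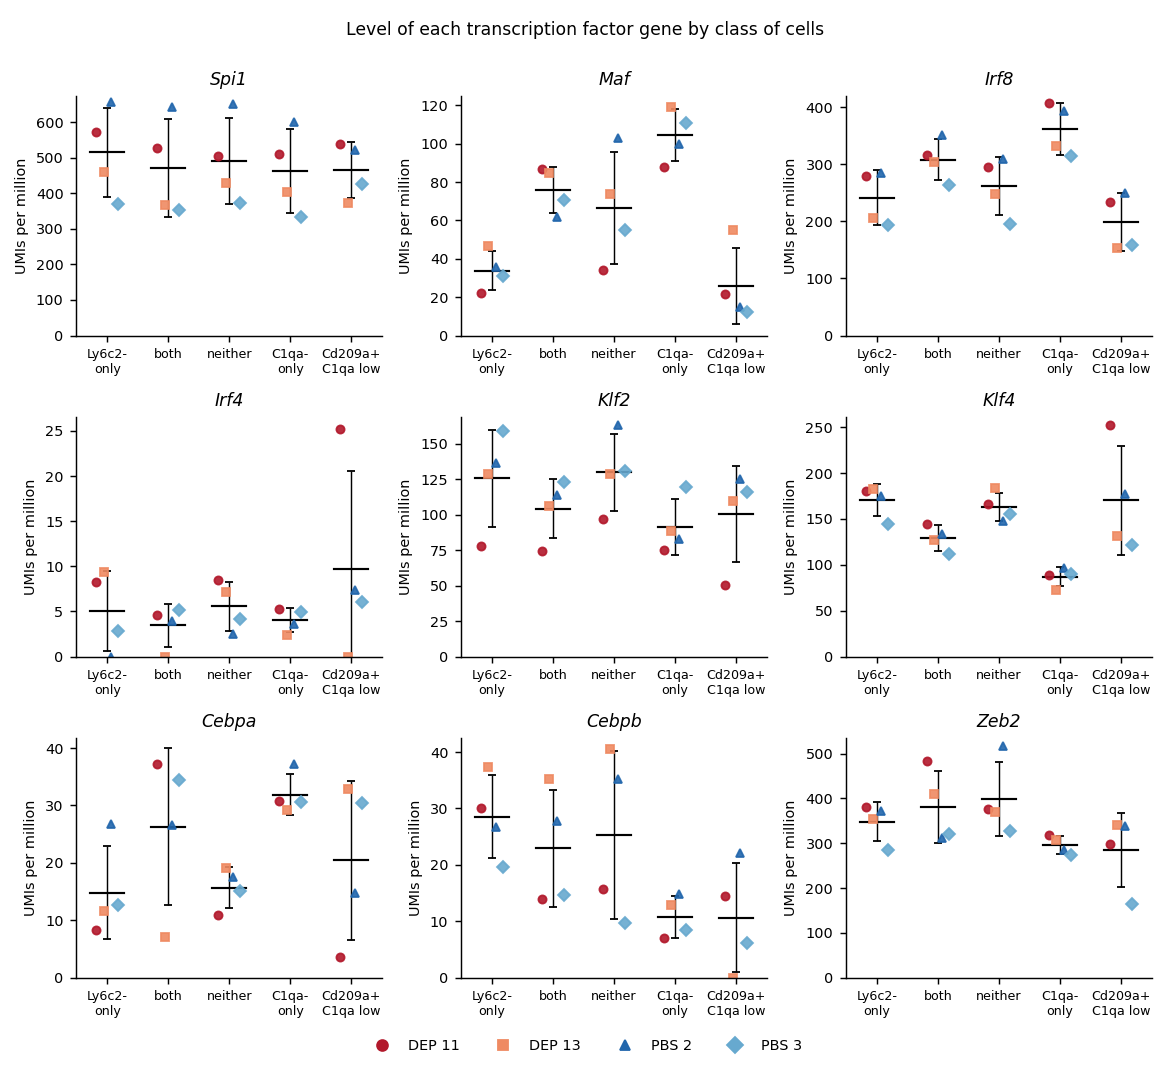
Each panel plots one gene's level (CPM, linear axis from 0) in each class, with a point per mouse, a bar at the mean of 4 mice and whiskers of 1 SD. Maf stood at 21.9 to 46.7 CPM in Ly6c2-only cells and at 87.99 to 119 CPM in C1qa-only cells, without overlap, and Klf4 went the other way.

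Spi1, the gene of the lineage-defining factor PU.1, was present at nearly the same level at both ends. In the order DEP 11, DEP 13, PBS 2 and PBS 3, its level was 573, 460.3, 658 and 371 CPM in Ly6c2-only cells and 512, 405, 601 and 332 CPM in C1qa-only cells. Every mouse was slightly lower at the C1qa end, with log2 ratios of −0.18 to −0.13, while the mice themselves lay much farther apart. The fitted difference was −0.14 on the log2 scale (SE 0.0643) and missed the threshold (edgeR quasi-likelihood test with Benjamini-Hochberg adjustment, as for all adjusted p-values below, adjusted p = 0.102).

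Maf encodes c-Maf, a factor of resident macrophages that acts on Il10 and other genes. It had the largest rise among the members tested. Its level was 21.9, 46.7, 35.7 and 30.95 CPM in Ly6c2-only cells, 87.01, 84.6, 61.7 and 70.8 CPM in cells with both and 87.99, 119, 100.04 and 111 CPM in C1qa-only cells. The lowest C1qa-only value lay above the highest Ly6c2-only value, and the fitted rise was 3.22-fold (log2 difference 1.69, SE 0.182, adjusted p = 2.06e-09). After every cell was thinned to 1000 UMIs, 3.22% (1.89% to 5.11%) of Ly6c2-only cells and 11.3% (10.1% to 12.5%) of C1qa-only cells held a Maf UMI (exact 95% intervals, counting error only), against 13.3% and 42.7% unthinned at median depths of 4791.5 and 6774 UMIs. Plasma-flagged barcodes, deeper at a median of 18650 UMIs, gave 7.07% (2.89% to 14.03%) when thinned, with an interval that overlaps that of Ly6c2-only cells and holds that of C1qa-only cells, so neither share is read as expression by itself.

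Irf8, which in monocytes and macrophages acts with PU.1 and in response to interferon, was at 279.6, 206, 285 and 194 CPM in Ly6c2-only cells and 407, 332, 394 and 315 CPM in C1qa-only cells. All 4 mice were higher at the C1qa end, and DEP 11 and PBS 2 stood above DEP 13 and PBS 3 at both ends. The rise was 1.52-fold (log2 difference 0.60, SE 0.0759, adjusted p = 4.91e-08). Irf4, the relative of Irf8 known from dendritic cells and from macrophages under interleukin-4, held only 127 UMIs in the 4499 cells, and 2.69% of cells had 1 or more. Its level was 8.22, 9.35, 0 and 2.81 CPM in Ly6c2-only cells, from 12 UMIs, and 5.24, 2.43, 3.56 and 4.96 CPM in C1qa-only cells, from 87 UMIs. No difference in Irf4 between the ends was detectable at this depth.

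Among the KLF genes, Klf4, a factor of monocyte differentiation, fell most clearly. Its level was 181, 182, 175 and 145 CPM in Ly6c2-only cells and 88.6, 72.2, 96.9 and 90.03 CPM in C1qa-only cells. The classes did not overlap, and the fall was 1.90-fold (log2 difference −0.93, SE 0.0982, adjusted p = 1.43e-09). Klf2, a factor known for restraining monocyte activation, was at 78.1, 129, 137 and 159 CPM in Ly6c2-only cells and 74.9, 88.8, 82.7 and 119.8 CPM in C1qa-only cells. Its classes overlapped since DEP 11 was low at both ends, with a log2 ratio of −0.061. The fitted difference was −0.43 on the log2 scale (SE 0.113) with an adjusted p of 0.00286. This call was lost without PBS 2 (log2 difference −0.30, adjusted p = 0.0586) and when every cell was thinned to 1000 UMIs (−0.084, adjusted p = 0.814). It was also lost with C1qa at 5 per 10000 (−0.39, SE 0.178, adjusted p = 0.133) and with no mouse block (−0.43, SE 0.205, adjusted p = 0.142).

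The C/EBP genes went in opposite directions. Cebpa, a factor of myeloid progenitors, was at 8.22, 11.7, 26.8 and 12.7 CPM in Ly6c2-only cells (38 UMIs in all) and 30.8, 29.1, 37.1 and 30.5 CPM in C1qa-only cells. It was 2.17-fold higher at the C1qa end (log2 difference 1.12, SE 0.243, adjusted p = 0.000356), in 4 of 4 mice, and with C1qa at 5 per 10000 it did not pass (0.71, adjusted p = 0.229). Cebpb, which is known for Ly6C-low monocyte survival and inflammatory genes, was at 30.2, 37.4, 26.8 and 19.7 CPM in Ly6c2-only cells and 6.99, 12.8, 14.8 and 8.48 CPM in C1qa-only cells. It fell 2.56-fold (log2 difference −1.36, SE 0.229, adjusted p = 9.87e-06), with no overlap between the classes. Both genes rest on few UMIs, 848 for Cebpa and 417 for Cebpb over all cells, and after thinning to 1000 UMIs both were under the gene filter and were not tested.

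Zeb2, a zinc finger repressor that keeps tissue macrophages in their identity, was at 381, 355, 372 and 284 CPM in Ly6c2-only cells and 319, 307, 286 and 275 CPM in C1qa-only cells. All 4 mice were lower at the C1qa end, but the fitted difference of −0.21 on the log2 scale (SE 0.0963) missed the threshold (adjusted p = 0.102). It passed with C1qa limits of 20 (−0.33, adjusted p = 0.000177) and 30 per 10000 (−0.35, adjusted p = 3.61e-05). Among barcodes under 500 UMIs Zeb2 was at 953 to 1269.9 CPM, Klf4 at 226 to 385 CPM, Klf2 at 279 to 371 CPM and Cebpb at 49.3 to 80.7 CPM, each above its level in all cells of every mouse. The part of such RNA in the lower levels of C1qa-only cells, which are deeper, was not tested.

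To follow the genes without class limits, the cells of each mouse were ordered by the log2 ratio of C1qa to Ly6c2 per 10000 (1 added to each) and divided into 8 bins of equal number. Maf rose from 36.2 ± 8.32 CPM (mean ± SD, n = 4) in bin 1 to 96.4 ± 20.3 in bin 4 and 111 ± 16.6 in bin 8, so that most of its rise lay in the first bins. Irf8 went from 231 ± 50.4 to 315 ± 52.6 and 376 ± 29.4 CPM, and Cebpa from 14.6 ± 9.57 to 27.1 ± 4.31 and 32.03 ± 6.84 CPM. These 3 genes were higher in the last bin than in the first in 4 of 4 mice.

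Klf4 fell from 171 ± 15.3 CPM in bin 1 to 110.3 ± 10.9 in bin 4 and 56.5 ± 6.09 in bin 8. Cebpb was level over the first bins, at 27.8 ± 7.38 CPM in bin 1 and 23.4 ± 11.5 in bin 3, and stood at 10.6 ± 2.48 in bin 5 and 6.64 ± 3.84 in bin 8. Zeb2 was highest in bin 2 at 398 ± 50.5 CPM and ended at 274 ± 17.2. Klf2 was at 131 ± 38.6 CPM in bin 1, 89.98 ± 16.7 in bin 4 and 98.1 ± 27.95 in bin 8, so its lower level was reached by the middle of the order. In proportion to its level Spi1 moved least, from 514 ± 119 to 467 ± 139 CPM. Klf2, Klf4, Cebpb, Zeb2 and Spi1 were lower in the last bin than in the first in 4 of 4 mice, and bins of 1 mouse are not replicates of each other.

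**Figure D2:**
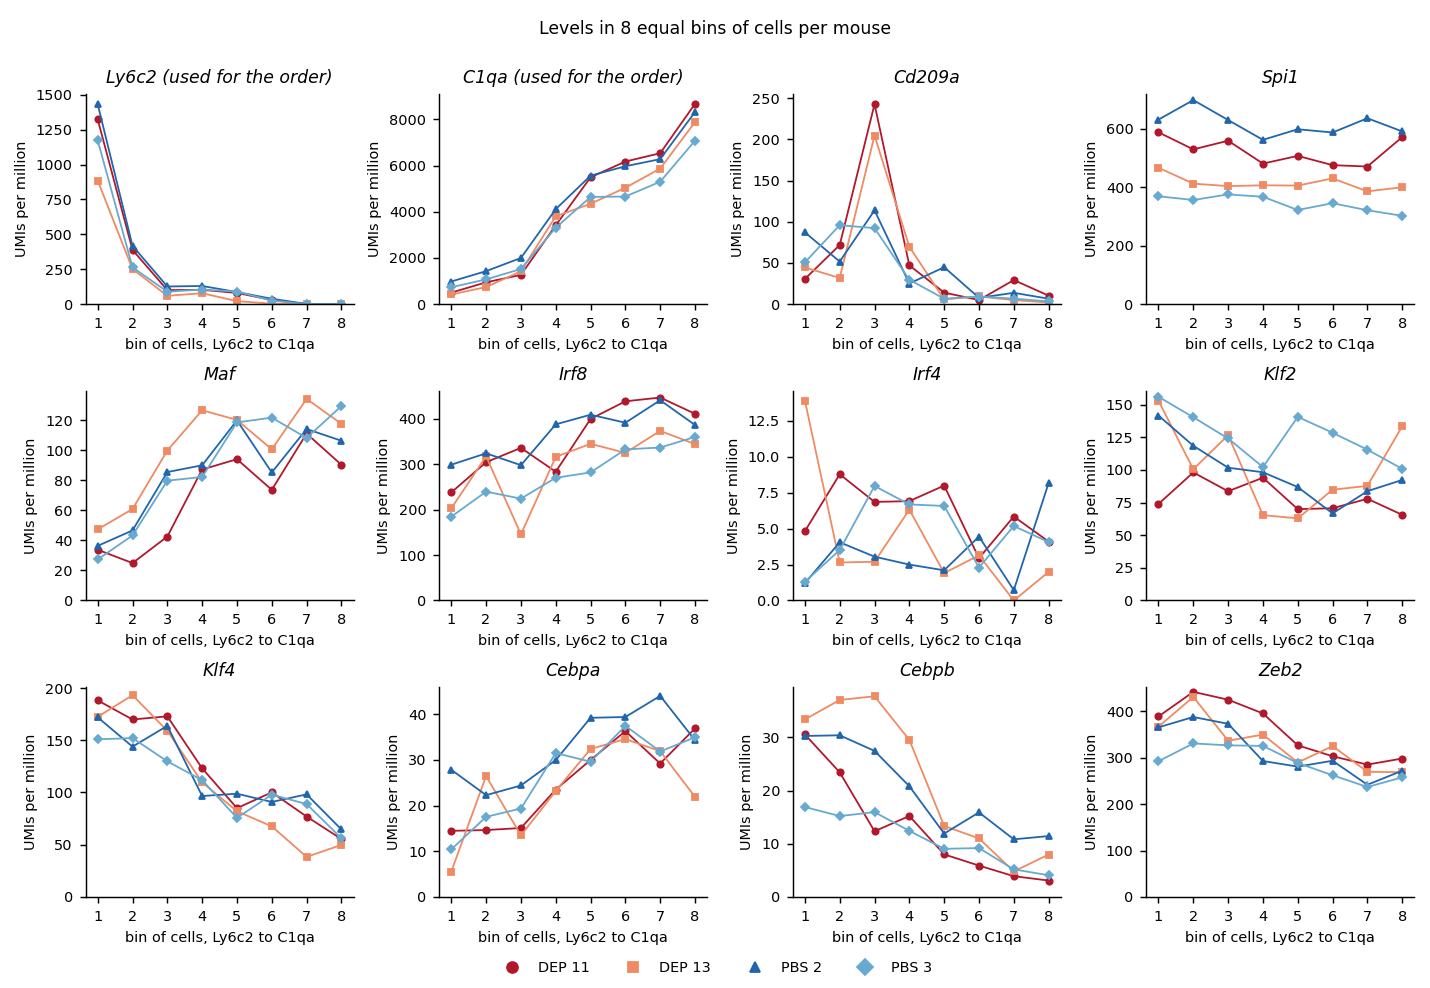
Each panel plots a gene's level (CPM, linear axis from 0) in 8 bins of equal cell number along the order from Ly6c2 to C1qa, with a line per mouse. Spi1 keeps the 4 mice in 1 order through all 8 bins, while Maf rises and Klf4 falls in each mouse.

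The next question was on which side of the cells with both markers the change lay. Between Ly6c2-only cells and cells with both, 10.6% of genes passed and so did 4 of 8 members, Maf (1.17, SE 0.227, adjusted p = 0.000372), Irf8 (0.35, SE 0.0875, adjusted p = 0.00666), Cebpa (0.96, SE 0.297, adjusted p = 0.0300) and Klf4 (−0.40, SE 0.116, adjusted p = 0.0185), in log2. Klf2 (−0.24), Cebpb (−0.40), Zeb2 (0.093) and Spi1 (−0.094) did not pass. Cebpa was higher in only 2 of 4 mice in this step. Between cells with both and C1qa-only cells, 14.3% of genes passed and so did 5 of 8 members, Maf (0.52, SE 0.144, adjusted p = 0.0104), Irf8 (0.26, SE 0.0732, adjusted p = 0.0124), Klf4 (−0.52, SE 0.101, adjusted p = 0.00026), Cebpb (−0.96, SE 0.228, adjusted p = 0.00278) and Zeb2 (−0.30, SE 0.0961, adjusted p = 0.0309). Cebpa (0.15), Klf2 (−0.19) and Spi1 (−0.043) did not.

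The counts in each step depended on the C1qa limit. With C1qa at 5 per 10000, 0 members and 2.10% of all genes passed in the first step. With C1qa at 30, 0 members and 0.258% of all genes passed in the second. The limit of 30 was added after the C1qa level of barcodes under 500 UMIs had been seen. Leaving out PBS 3 left 1 member called in the first step and 2 in the second, leaving out DEP 11 left 2 and 3, and leaving out PBS 2 left 3 in each, while 6.07% to 9.56% of all genes passed in the first step and 9.51% to 13.5% in the second over the 4 mice left out. Both steps share the cells with both, so they are not independent of each other.

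Cd209a encodes a lectin found on some monocyte-derived and dendritic cells, and Irf4, Klf4 and Zeb2 are known for roles in such cells. Of 319 cells with a Cd209a UMI, 107 had C1qa under 10 per 10000 (DEP 11 held 43, DEP 13 held 17, PBS 2 held 20 and PBS 3 held 27), and they were compared with the 933 cells without one under the same C1qa limit. None of the 8 members tested passed, against 1.21% of the 5602 genes tested, while 5 members and 523 genes had an unadjusted edgeR p under 0.05. The median log2 difference was −0.40 over the members and −0.0083 over all genes tested. Cells with a Cd209a UMI were deeper, at a median of 6020 against 4567 UMIs.

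Zeb2 came closest. It was at 299, 339.9, 339 and 164 CPM in Cd209a cells and 397, 365, 438 and 324 CPM in the cells without, lower in 4 of 4 mice by −0.44 on the log2 scale (SE 0.140) (unadjusted p = 0.00344, adjusted p = 0.150, both from edgeR). It passed with C1qa limits of 20 (−0.52, adjusted p = 0.00624) and 30 (−0.44, adjusted p = 0.00527) and with at least 2 Cd209a UMIs (−0.88, adjusted p = 0.00268).

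Maf was at 21.6, 54.8, 14.7 and 12.2 CPM in Cd209a cells, from 15 UMIs in all, and 29.8, 60.8, 67.4 and 47.1 CPM in the cells without. The difference was −1.02 on the log2 scale (SE 0.382) (adjusted p = 0.307), with all 4 mice lower. Irf8 (−0.35, SE 0.152, adjusted p = 0.445), Klf2 (−0.45, SE 0.209, adjusted p = 0.503) and Cebpb (−1.13, SE 0.526, adjusted p = 0.499) had lower values in 4 of 4 mice, and missed the threshold too. Klf4 (0.15), Cebpa (0.26) and Spi1 (−0.072) were higher in 2 mice and lower in the other 2.

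Irf4 had 9 UMIs in the 107 Cd209a cells, of which DEP 11 held 7, DEP 13 held 0 and each PBS mouse held 1. The 933 cells without Cd209a held 17 Irf4 UMIs, of which 6 came from DEP 11, 7 from DEP 13, 0 from PBS 2 and 4 from PBS 3. After thinning, 2.80% (0.582% to 7.98%) of Cd209a cells and 0.107% (0.00271% to 0.596%) of the others held an Irf4 UMI, and plasma-flagged barcodes, which are known to express Irf4, gave 4.04% (1.11% to 10.02%). T-flagged barcodes, at a median of 3316 UMIs, gave 5.48% (1.51% to 13.4%), and B-flagged barcodes, at a median of 3897 UMIs, gave 6.000% (2.23% to 12.6%). The intervals of the Cd209a cells and the cells without overlapped, and 1 mouse held most of the UMIs, so no difference is read from them.

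Of the dendritic cell markers tested other than Cd209a, which set the groups, 2 of 4 were higher in Cd209a cells (Clec10a and H2-DMb2) and none was lower. The summed level of the list without Cd209a was 928 to 1809 CPM against 803 to 1021 CPM. The same sum was 820 to 1057 CPM in C1qa-only cells, and the Cd209a cells of PBS 2, at 928 CPM, lay within that range. Zbtb46, a defining marker of conventional dendritic cells, had 6 UMIs in Cd209a cells and 0 in the others, and Flt3 had 14 and 39. Monocyte markers without Ly6c2 summed to 3500.4 to 6349 CPM against 5516 to 6667 CPM, with 3 of the 9 tested lower, Ly6c2 counted. Macrophage markers without C1qa summed to 10305, 9473, 18184 and 10239 CPM in Cd209a cells and 15027, 12443, 18953 and 13906 CPM in the cells without, lower in 4 of 4 mice. Of 10 tested, C1qa counted, 1 was called lower, Apoe at −0.46 (SE 0.0902, adjusted p 0.00461). The median log2 difference of these 10 was 0.071, against −0.0083 over all genes tested, so the lower sum does not describe the list as a whole. The part of these cells in the members' differences was not tested.

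Against C1qa-only cells, the Cd209a cells with low C1qa stood apart in 3 of 8 members, with 10.9% of 6905 genes passing. Maf was 4.72-fold lower (log2 difference −2.24, SE 0.318, adjusted p = 6.84e-08) and Irf8, at 234, 153, 250.4 and 158 CPM in Cd209a cells, was 1.91-fold lower (log2 difference −0.93, SE 0.148, adjusted p = 1.27e-06). Klf4, at 252, 132, 177 and 122 CPM, was 1.91-fold higher (log2 difference 0.93, SE 0.191, adjusted p = 0.000178), in 4 of 4 mice. DEP 11 had the highest Klf4 level, and without it the difference was 0.62 (adjusted p = 0.143). With at least 2 Cd209a UMIs the Klf4 difference was 0.39 (adjusted p = 0.566), and with C1qa at 5 per 10000 Maf was at −1.52 (adjusted p = 0.119) and Klf4 at 0.99 (adjusted p = 0.114), so that neither passed there. Cebpa (−0.997, SE 0.436, adjusted p = 0.150), Cebpb (0.20), Zeb2 (−0.18), Klf2 (−0.042) and Spi1 (−0.041) did not pass. This comparison shares its C1qa-only cells with the comparison of the ends. The groups are split on C1qa, and the cells with low C1qa and no Cd209a lay on the same side of C1qa-only cells, with Maf as given above, Irf8 at 299, 235, 300.4 and 199.5 CPM and Klf4 at 156, 189, 164 and 154 CPM.

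**Figure D3:**
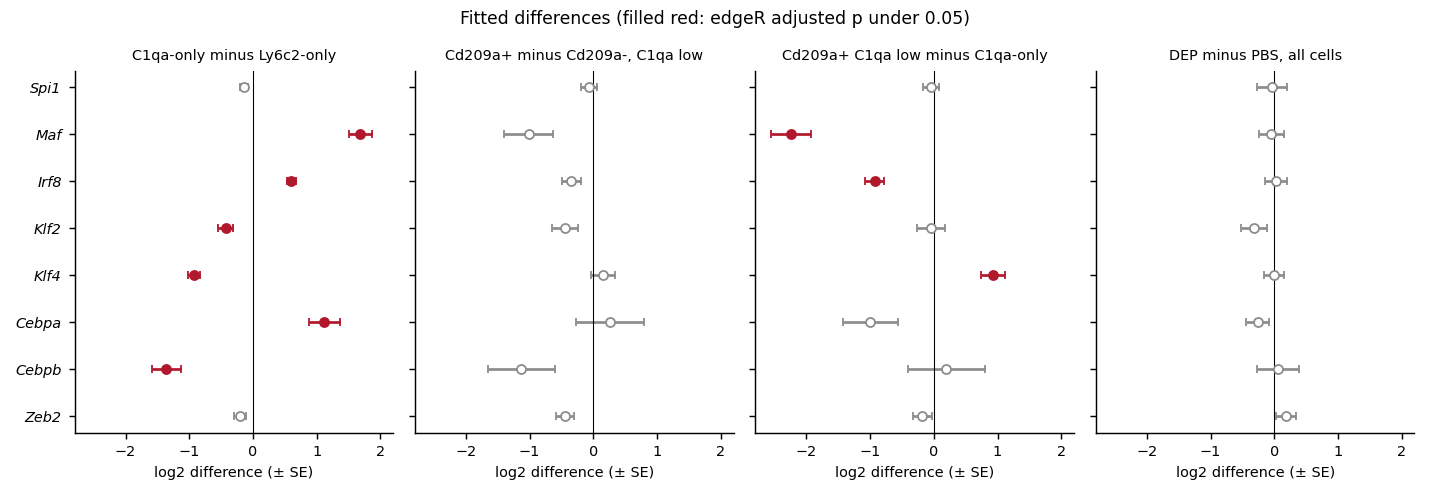
Fitted log2 differences (x axis, ± 1 SE) for the 8 members tested in 4 comparisons, with filled red points for members past the edgeR threshold. Members pass in the comparisons with C1qa-only cells (6 and 3 of 8), and none passes for Cd209a at low C1qa or for DEP against PBS.

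The last question was whether the factor genes differed between DEP and PBS mice. None of the 8 members tested passed over all 4499 cells, and the background was 0.0%, since edgeR called 0 of 6582 genes (179 had an unadjusted p under 0.05). DESeq2 called 0 members too, a count that is not read further because its share of all genes called is not given here. The median log2 difference was −0.017 over the members and −0.0040 over all genes tested. DEP and PBS levels did not overlap for 2 of 8 members, Cebpa and Zeb2, against 27.0% of all genes tested. A p that misses the threshold does not show that the groups are alike.

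The ratio of the highest to the lowest mouse over all cells was, among the 8 members tested, largest for Cebpb, at 1.90 on few UMIs (94.6% of all genes tested had a smaller one), and next for Spi1, which has many more UMIs. The Spi1 level over all cells was 519, 412, 614 and 341 CPM, with the mice in the same order as before. Each group held 1 high and 1 low mouse, so that the fitted DEP difference was −0.028 on the log2 scale (SE 0.235) although the highest mouse was 1.80-fold above the lowest. For Spi1, 92.4% of all genes tested had a smaller ratio, and the median ratio was 1.31. The order PBS 2, DEP 11, DEP 13, PBS 3 held in all 4 classes and in all 8 bins. Irf8 had the same order over all cells, in 3 of 4 classes and in 2 of 8 bins, with a ratio of 1.30. Each mouse was 1 library, so a difference between mice and one between libraries cannot be told apart.

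Among the other members, Zeb2 was at 348, 323, 306 and 285 CPM, with both DEP mice above both PBS mice. The difference was 0.18 on the log2 scale (SE 0.150) (adjusted p = 0.9998). Cebpa was at 26.6, 25.3, 33.9 and 28.2 CPM, with both DEP mice below, and differed by −0.26 on the log2 scale (SE 0.182). Klf2 was at 77.9, 98.1, 94.7 and 124 CPM, lowest in DEP 11 and highest in PBS 3, with a difference of −0.32 on the log2 scale (SE 0.204). Maf was at 74.2, 105, 89.6 and 95.02 CPM (log2 difference −0.046, SE 0.199), Irf8 at 371, 308, 376 and 289 CPM (0.032, SE 0.170) and Klf4 at 113, 98.4, 110.4 and 102 CPM (−0.0062, SE 0.153). Cebpb was at 11.2, 19.4, 18.5 and 10.2 CPM, with DEP 13 and PBS 2 high and DEP 11 and PBS 3 low, and differed by 0.055 on the log2 scale (SE 0.330). The adjusted p was 0.9998 for each of these members.

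**Figure D4:**
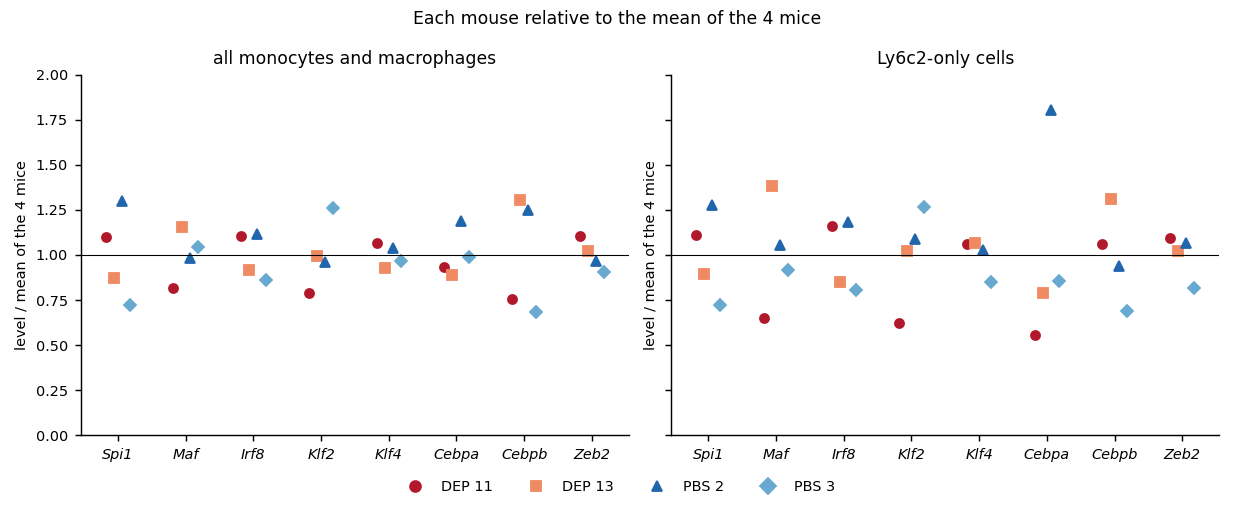
Level in each mouse divided by the mean of the 4 mice (y axis from 0, no unit) for the 8 members tested, over all cells and in Ly6c2-only cells. In Spi1 the DEP mice lie between the PBS mice, and in Ly6c2-only cells Cebpa is highest in PBS 2 and lowest in DEP 11.

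Within classes, 0 members passed in Ly6c2-only cells (background 0.0% of 5539 genes, 175 at an unadjusted edgeR p under 0.05), 0 in C1qa-only cells (0.0% of 6917, 261) and 0 of 9 in Cd209a cells with low C1qa (0.016% of 6238, 170). In Ly6c2-only cells the DEP and PBS mice did not overlap for 4 of 8 members, against 30.2% of genes. Klf2 and Cebpa were lower in both DEP mice there, and Klf4 and Cebpb higher, with the levels of each mouse given above. In C1qa-only cells 2 of 8 did not overlap (30.1% of genes), with Zeb2 higher in both DEP mice and Klf4 lower, the other way from Ly6c2-only cells. In Cd209a cells 2 of 9 did not overlap (31.0%), with Maf higher in both DEP mice and Klf2, at 50.4, 109.6, 125 and 116 CPM, lower. Dendritic cell markers without Cd209a summed higher in both DEP than in both PBS mice in all 4 classes and in Cd209a cells. The sums were 1078, 1025, 823 and 857 CPM over all cells and 972, 939, 777 and 763 CPM in Ly6c2-only cells. In Cd209a cells they were 1809, 1688, 928 and 1376 CPM. Of the markers on this list that were tested, 0 of 6 passed over all cells and 0 of 5 in Ly6c2-only cells. In C1qa-only cells 0 of 6 passed, and in Cd209a cells 0 of 8. All these sums come from the same 4 mice, so the classes are not independent of each other. In Ly6c2-only cells 3 of 10 macrophage markers tested had an unadjusted edgeR p under 0.05 and 0 passed, with a median log2 difference of −0.35. C1qa, which sets the limit of this class, is counted among the 10 and in the median. In C1qa-only cells 4 of 8 monocyte markers tested had an unadjusted edgeR p under 0.05 and 0 passed, with a median log2 difference of −0.49. The difference between the DEP effects in C1qa-only and Ly6c2-only cells was tested as an interaction with the mouse as a block, and 0 of 8 members passed, against 0.221% of 6791 genes and 442 at an unadjusted p under 0.05. The lowest unadjusted edgeR p among the members was 0.0616, for Cebpb. In the same interaction 3 of 11 macrophage markers tested were called higher, the complement genes C1qa, C1qb and C1qc, with a median of 0.54 in log2. C1qa set the classes and is counted in the median, so its own call is not read as a result. Of 8 monocyte markers 2 were called lower, Chil3 and Hp, with a median of −0.52. The part of such cells in the members' levels was not tested.

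The factor genes were then set beside other transcription factors of myeloid cells, a list of 70 written by name, of which 69 were in the table. In the comparison of the ends 58 were tested, 15 were higher and 17 lower in C1qa-only cells, a share above the background of 34.0% that is read as a description only. The median log2 difference of the list was −0.031. The higher ones included Runx3 at 1.28 (SE 0.135, adjusted p 1.27e-09) and Hes1, a Notch target, at 1.30 (SE 0.174, adjusted p 1.9e-07). Those with the smallest p among the lower ones were the interferon genes Irf7 at −2.38 (SE 0.127, adjusted p 3.44e-17) and Irf5 at −0.84 (SE 0.0853, adjusted p 5.28e-10) and the monocyte gene Nr4a1 at −1.33 (SE 0.0843, adjusted p 3.94e-15). In Cd209a cells at low C1qa 1 of 52 passed, Bhlhe40, a gene of activated myeloid cells, at 1.41 (SE 0.282, adjusted p 0.00532).

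Of 8 known targets of PU.1, all were tested in the comparison of the ends and 4 passed, against 34.0% of all genes tested. Csf1r, the receptor for macrophage colony-stimulating factor, rose by 0.53 (SE 0.0810, adjusted p 2.04e-06) and Fcgr1 by 0.40 (SE 0.0911, adjusted p 0.000561). Fcgr1 encodes Cd64, on which cells low in Ly6c2 had been sorted, so its rise and the sort cannot be told apart. Csf3r, the receptor for granulocyte colony-stimulating factor, was at −1.03 (SE 0.148, adjusted p 6.84e-07) and Cybb, a subunit of the phagocyte oxidase, at −0.48 (SE 0.0665, adjusted p 3.04e-07), both lower. Btk (−0.26), Csf2ra (−0.12), Tlr4 (0.32) and Itgam (0.020) did not pass. Of 6 targets of C/EBP beta 3 were tested, with Saa3, an acute phase gene, lower at −1.14 (SE 0.288, adjusted p 0.00187), Il1rn, the interleukin-1 receptor antagonist, higher at 0.54 (SE 0.188, adjusted p 0.0227) and Il1b at 0.17 (SE 0.0700, adjusted p 0.0586).

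For each member the 3 genes with the most similar pattern were sought by Pearson's r of log2 CPM over the 16 sums (4 mice in 4 classes), which share mice and cells, so r is a description. Spi1 was most like Tgfb1 (0.963), Gnb2 (0.957) and Crlf2 (0.933), Maf like Dab2 (0.919), Fcgr2b (0.919) and Runx3 (0.917), and Irf8 like Gpr162 (0.944), Acvrl1 (0.943) and Itm2c (0.929). Klf4 was most like S100a4 (0.948), Camkk2 (0.947) and Lsp1 (0.946), of which S100a4 and Lsp1 are known leukocyte genes. Klf2 was most like the heat shock gene Hspa1b (0.849), Wfdc17 (0.786) and Psma6 (0.777). Cebpa was most like Rapsn (0.929), Cpd (0.886) and Pdlim4 (0.886), Cebpb like Ndrg1 (0.903), Unc119 (0.872) and Stat3 (0.824), and Zeb2, with the weakest likeness, like Trpv2 (0.767), Cops3 (0.734) and Mrto4 (0.730). Irf4, at 0 UMIs in 2 of the 16 sums, is too sparse for a likeness to be read.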

How the data were processed

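The labels describe sorted colon monocytes and macrophages of 4 mice, each 1 library of 10x Genomics 3' v2 chemistry. The deposited values are raw UMI counts per gene and barcode, which the authors made, per the submitters' processing notes, with Cell Ranger, STAR 2.6.1a and R 3.5.1 on mm10, with the annotation and any barcode filter not given in the sources used here. Each barcode's mouse was read from its name. Barcode strings found in 2 mice numbered 39, and whether these are shared droplets cannot be read from the names. Symbols and positions came from GENCODE M21 (28339 of 28692 identifiers matched).

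The members and gene lists were chosen with earlier results of these data known. Members are named in every comparison, other listed factors by the smallest p (up to 3 per direction), the targets tested in the comparison of the ends, and the most similar genes by r, except that some results are not reported here. UMI totals were 4489342 to 10293703 per mouse, so DEP 13, the lowest, is the least precise. Scrublet (scanpy 1.11.5) called 58 of 4771 barcodes (1.22%) doublets, 3.26% in DEP 13, and none was removed. Counts were summed per mouse and class and tested with edgeR 4.0.16 (R 4.3.3, TMM, quasi-likelihood, the mouse as a block where classes of the same mice were compared, Benjamini-Hochberg FDR of 5%). Genes needed over 1 CPM in 2 sums and a UMI in 5% of cells. The tests were checked on simulated counts with planted log2 changes of 1 and 2 and no difference between mice. That check says nothing about smaller changes or about mice that differ. Alternatives were other scalings, DESeq2 1.42.0, limma voom 3.58.1, the likelihood ratio test, other filters on genes and cells, doublets removed, thinning to 1000 UMIs, other class limits, no mouse block and leaving out each mouse. A limit of 30 per 10000 for C1qa was added after the data had been seen. Nothing says the mice came from separate cages or days. P-values for DEP against PBS therefore measure only the spread between these mice. Where the mouse was a block, they measure the spread of the differences over these mice. A sum over a class does not tell fewer cells holding a transcript from fewer transcripts per cell.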

Additional observations from a re-analysis of the deposited data

Results flagged for a closer look

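The reported comparisons leave out barcodes under 500 UMIs and barcodes flagged by T, B or plasma cell markers, and several members stood higher there than in the cells analysed. In barcodes under 500 UMIs the mean level over the 4 mice was 1057 CPM for Zeb2, 331 CPM for Klf2, 319 CPM for Klf4 and 65.9 CPM for Cebpb. In each of these 4 genes the lowest mouse lay above the highest mouse of the analysed cells, where Zeb2 was at 285 to 348 CPM, Klf2 at 77.9 to 124 CPM, Klf4 at 98.4 to 113 CPM and Cebpb at 10.2 to 19.4 CPM. Irf4 was above too, at 8.22 to 24.4 CPM, but on 8 UMIs in all, and Spi1, Maf, Irf8 and Cebpa did not stand apart in this way. In the same barcodes mitochondrial genes took 21.3% to 27.5% of UMIs and the nuclear RNA Malat1 stood at 82734 to 117468 CPM, against 1.84% to 2.18% and 21637 to 27128 CPM in barcodes with at least 1000 UMIs.

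In T-flagged barcodes Maf had a mean level of 232 CPM, 153 to 347 CPM over the mice. In plasma-flagged barcodes Irf4, a known plasma cell factor, had a mean of 36.1 CPM, 26.9 to 57.6 CPM over the mice. It was at 13.03 to 85.7 CPM in B-flagged barcodes on 16 UMIs and at 0 to 72.3 CPM in T-flagged barcodes on 13 UMIs. In B-flagged barcodes Klf2 had a mean of 156 CPM. These barcodes also held C1qa, at 1041 to 2034 CPM in T-flagged and 2682 to 4313 CPM in B-flagged ones.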

How the results depend on the processing

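The number of members past the threshold stayed within 1.5 times its reported value in 208 of 232 recalculations. The counts for DEP against PBS and for the interaction were 0 in all of theirs. In those comparisons 0.0% to 0.221% of all genes passed in the reported fits, so the counts had little room to change. The 24 counts that moved all lay in the comparisons of classes of cells, those of Cd209a cells included. The share of all genes past the threshold under the same setting stands in parentheses. Between Ly6c2-only and C1qa-only cells 6 members passed, and 3 (Maf, Irf8 and Klf4) after thinning to 1000 UMIs (33.6%), where fewer genes were tested. Between Ly6c2-only cells and cells with both 4 passed, against 1 with no mouse block (4.45%), 0 after thinning (8.32%), 0 with C1qa at 5 per 10000 (2.10%), 0 with Ly6c2 at 4 (1.32%), and 1 to 4 when a mouse was left out. Between cells with both and C1qa-only cells 5 passed, against 3 by DESeq2 (10.8%), 1 with no mouse block (6.06%), 2 after thinning (14.2%), 1 with C1qa at 20 (1.93%), 0 with C1qa at 30 (0.258%), 1 with Ly6c2 at 1 (5.85%), 1 with classes set on thinned cells (5.01%), and 2 to 4 when a mouse was left out. For Cd209a at low C1qa 0 passed, against 1 each with no gene filter (1.46%), C1qa at 20 (2.24%) and classes set on thinned cells (1.76%), 2 each with any C1qa (2.64%) and C1qa at 30 (2.42%), and 3 with at least 2 Cd209a UMIs (2.21%). For Cd209a cells against C1qa-only cells 3 passed, and 1 with C1qa at 5 (3.44%). The cause of these changes was not tested.

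Of 1096 recalculated log2 differences of single members 59 changed sign, all of them of values that did not pass the test. For cells with both against Ly6c2-only cells these were Klf2 after thinning (0.14) and Zeb2 with C1qa at 20 and 30, Ly6c2 at 1 and classes on thinned cells (−0.15, −0.11, −0.13 and −0.10) and without DEP 11 (−0.016 to 0.26 over the mice). For C1qa-only cells against cells with both they were Spi1 with no gene filter, with lymphoid barcodes kept and with C1qa at 20 and 30 (0.010, 0.011, 0.034 and 0.014), Klf2 with Ly6c2 at 1 (0.060) and Cebpa with C1qa at 20 and 30 (−0.16 and −0.28, −0.092 to 0.31 leaving out a mouse).

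For Cd209a at low C1qa, Spi1 gave 0.062 (thinned) and −0.18 to 0.025 (leaving out a mouse). Klf4 gave −0.037 (no gene filter), −0.39 (at least 2 Cd209a UMIs), −0.20 (Cd209a at 2 per 10000) and −0.21 to 0.29 (leaving out a mouse). Cebpa gave −0.52 (C1qa at 5), −0.30 (C1qa at 20), −0.035 (classes on thinned cells), −0.23 (any C1qa), −0.21 (C1qa at 30) and −0.29 to 0.66 (leaving out a mouse). For Cd209a cells against C1qa-only cells, Spi1 gave 0.041 (without TMM), 0.18 (thinned), 0.021 (C1qa at 30) and −0.16 to 0.018 (leaving out a mouse). Klf2 gave 0.038 (without TMM), 0.086 (C1qa at 20), 0.091 (classes on thinned cells), 0.051 (any C1qa), 0.15 (C1qa at 30) and −0.26 to 0.17 (leaving out a mouse). Cebpb gave −7.96 (C1qa at 5, SE 4.42), −0.015 (classes on thinned cells), −0.41 (at least 2 Cd209a UMIs), −0.51 (Cd209a at 2 per 10000), −0.26 (any C1qa) and −0.28 to 0.51 (leaving out a mouse). Zeb2 gave 0.071 (thinned) and 0.0093 (C1qa at 30). For DEP against PBS over all cells, Spi1 gave 0.017 (limma voom), 0.018 (thinned) and −0.36 to 0.41 (leaving out a mouse). Maf gave −0.35 to 0.22 (leaving out a mouse). Irf8 gave −0.16 (thinned) and −0.11 to 0.19 (leaving out a mouse). Klf4 gave 0.0057 (doublets removed) and −0.080 to 0.060 (leaving out a mouse). Cebpb gave −0.38 to 0.50 (leaving out a mouse).

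Scaling moved no count by over 1.5 times. With no gene filter the median of all genes moved by over 0.1 in the comparisons of classes, from genes with few counts. All 54 shares of cells were larger unthinned, which was fixed in advance because thinning only removes UMIs. Depth limits Irf4, Cebpb and Cebpa most, and the 107 Cd209a cells. No paired analysis by replicate number was possible because the DEP and PBS mice share no number. Leaving out a mouse leaves 1 in its group, which is then assumed to vary like the others.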
